A study of Mus musculus with 11 samples.

Results

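Gene expression in the cortical collecting duct was set against that in ureteral smooth muscle, the muscle coat that forms around the ureter, in wild-type CD-1 mice (an outbred stock) at the embryonic stage E15.5, Theiler stage 23. The comparison rests on 5 of the 11 arrays of the series, 2 of cortical collecting duct and 3 of ureteral smooth muscle. The other 6 arrays, 3 of early proximal tubule and 3 of urothelium, entered the same fit and lent it their spread. Every sample was laser capture microdissected from stained frozen sections and pooled from approximately 50 sections of 5 kidneys. No group carried a transgene, a deletion or a treatment, and the sex of the fetuses is labelled unknown. Amplification ran for 2 rounds and the label was biotin. All genes with a name on the array were members of the comparison: 18193 were named, and 13614 were tested, which required a signal above the array's own median in at least 2 of the 11 arrays. Values are log2(signal + 55), called the log2 signal here, on which a signal of 0 stands at 5.78 and which makes folds of dim genes smaller. Nothing states that the pools came from separate animals, so p-values speak only of how far these pools lay apart, a spread that may be technical.

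The collecting duct descends from the ureteric bud, an epithelial outgrowth that branches into the kidney, and its mature principal cells take up sodium and water under the control of aldosterone and vasopressin. Ureteral smooth muscle arises from mesenchyme around the ureter stalk and contracts to drive urine towards the bladder. Hedgehog and Wnt ligands from the epithelium and BMP4 from the mesenchyme are known to take part in the differentiation of this muscle coat, and the T-box factor TBX18 marks its precursors.

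The arrays had median signals of 247 to 401, and the authors' scaling gave each a 2% trimmed mean of 1500. Across the 13614 genes, which are not independent replicates, the 2 collecting duct arrays correlated at r = 0.905 and the smooth muscle arrays at 0.906 to 0.924, against 0.772 to 0.832 between the compartments. Collecting duct replicate 2 had a Gapdh control whose 3' signal was 25.9 times its 5' signal and an actin 3' control signal of 9978, where in the other 4 arrays these values were 6.79 to 13.7 and 56583 to 75054. Xist, the RNA of the inactive X chromosome, measured 9.56 and 16.09 in collecting duct and 7.83, 8.92 and 16.54 in smooth muscle, the widest range of any gene in both compartments, and both had low and high arrays. Of the 13614 genes tested, 444 lay on a sex chromosome. So did 15 of the 669 genes called higher and 12 of the 457 called lower. The part of these differences in the results below was not tested. Replicates are called by their number, and label batch is a part of the sample titles (for collecting duct replicate 2, of its source name), numbered here, whose meaning is not stated. Collecting duct replicate 1 and smooth muscle replicate 2 share label batch 1, and each of the other 3 arrays lies in a label batch without the opposite compartment. In tissue cut from sections, fewer cells of a type and less RNA per cell cannot be told apart.

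A gene was called when its Benjamini-Hochberg adjusted p by limma was under 0.05 and its log2 fold change, collecting duct minus smooth muscle, was at least 1 in size. On this rule 669 genes (4.91% of those tested) were higher in collecting duct and 457 (3.36%) were lower, together 8.27%. The arrays of the 2 compartments did not overlap in any of these 1126 genes, which the rule makes likely because the same arrays made the calls. Of all genes tested 36.1% had non-overlapping arrays. Genes called higher had a median log2 fold change of 2.91 and genes called lower one of -2.59, against 0.02 over all genes tested. Changes of at least 3 log2 units made up 310 of the higher and 167 of the lower genes. Within label batch 1 alone, with 1 array of each compartment and no test, the median differences of the same genes were 2.84 and -2.56; their direction there is fixed, since these arrays helped to make the calls. With label batch as a fixed block in the fit the counts were 189 and 113, without collecting duct replicate 1 they were 317 and 203, and without collecting duct replicate 2 they were 386 and 287. Without smooth muscle replicate 3 the lower genes numbered 284.

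The genes called higher had a median log2 signal of 11.72 in collecting duct, 8.31 in smooth muscle, 10.92 in proximal tubule and 10.82 in urothelium. For the genes called lower the medians were 9.28, 12.06, 9.49 and 10.09 in the same order. In both sets the medians of the other 2 epithelia lay nearer to that of collecting duct than to that of smooth muscle.

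The largest difference of all belonged to Dcdc2a, a doublecortin-domain protein of microtubules and cilia. Its log2 signal was 15.01 and 15.20 in collecting duct and 6.10, 6.25 and 6.09 in smooth muscle. The smooth muscle values lay close to the value of no signal, and the difference was 8.96 ± 0.84 (SE) with an adjusted p of 4.42e-05 (limma). Pkhd1, the gene of the ciliary and tubular membrane protein fibrocystin, measured 12.88 and 12.44 in collecting duct and 5.87, 6.94 and 5.84 in smooth muscle, a difference of 6.45 ± 0.69 (adjusted p = 7.92e-05). Calb1, the calcium-binding protein calbindin, differed by 7.63 ± 1.51 (adjusted p = 0.00569). Its collecting duct arrays stood at 14.81 and 15.22, while smooth muscle replicate 3, at 9.45, lay above the other 2 muscle arrays at 5.98 and 6.73. In proximal tubule the mean log2 signal was 15.27 for Dcdc2a, 12.71 for Pkhd1 and 9.64 for Calb1. The Calb1 call was not made with label batch as a block (adjusted p = 0.152), without collecting duct replicate 1 (0.0536) or without replicate 2 (0.0592).

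Several of the next largest differences were of membrane and transport proteins. Adgrg6, an adhesion G-protein-coupled receptor, measured 14.27 and 14.80 in collecting duct and 9.18, 8.31 and 7.72 in smooth muscle, a difference of 6.13 ± 0.62. Kcnj16, an inwardly rectifying potassium channel, differed by 6.11 ± 0.62, and Cxadr, the coxsackievirus and adenovirus receptor of tight junctions, by 6.10 ± 0.60. The mean of Kcnj16 was 13.30 in proximal tubule and 12.94 in collecting duct, and that of Cxadr 11.18 and 13.09. Rgn, regucalcin, a calcium-binding protein of the cytosol, differed by 6.11 ± 1.26 (adjusted p = 0.00737), with smooth muscle replicate 2 at 8.73 above the other muscle arrays at 6.36 and 6.44. Its call was lost with label batch as a block (4.14, adjusted p = 0.391) and without collecting duct replicate 2 (adjusted p = 0.0875). The lipid enzymes Ugt8a, which makes galactosylceramide, and Sgpp2, a sphingosine-1-phosphate phosphatase, differed by 6.12 ± 0.51 and 6.19 ± 0.86. Also among the 20 largest were the kinase Map3k21 at 7.27 ± 0.75, the POU factor Pou3f3 at 6.29 ± 0.50 and the adaptor subunit Ap1s3 at 6.07 ± 0.55.

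On the smooth muscle side the largest difference was that of Myh11, the smooth muscle myosin heavy chain. The log2 signal was 6.17 and 8.38 in collecting duct and 14.55, 15.30 and 14.74 in smooth muscle, a difference of -7.59 ± 1.05 (adjusted p = 0.000522). Sarcomeric genes were among the leaders too. Tnnt2, cardiac troponin T, measured 6.39 and 6.88 in collecting duct and 13.15, 13.07 and 12.94 in smooth muscle, a difference of -6.42 ± 0.69, and cardiac actin Actc1 is described below. Car3, a carbonic anhydrase of muscle and fat, measured 10.54 and 10.80 in collecting duct and 16.67, 16.76 and 16.91 in smooth muscle. The difference was -6.11 ± 0.63.

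Other genes of this side encode matrix, secreted and signalling proteins. Emilin3, a glycoprotein of the extracellular matrix, fell by 6.11 in collecting duct relative to smooth muscle, and Nptx2, a secreted pentraxin, by 5.85. The POU factor Pou3f1 measured 6.01 and 7.48 in collecting duct and 12.48, 11.89 and 13.80 in smooth muscle and so went the other way from its relative Pou3f3. Entpd1, the ectonucleotidase CD39, differed by -5.48 ± 0.88, and at a pseudocount of 12, where the probe set with the highest mean changes, by -1.42 with an adjusted p of 0.086. Tubb6, a beta tubulin, differed by -5.28 ± 0.50.

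**Figure D1:**
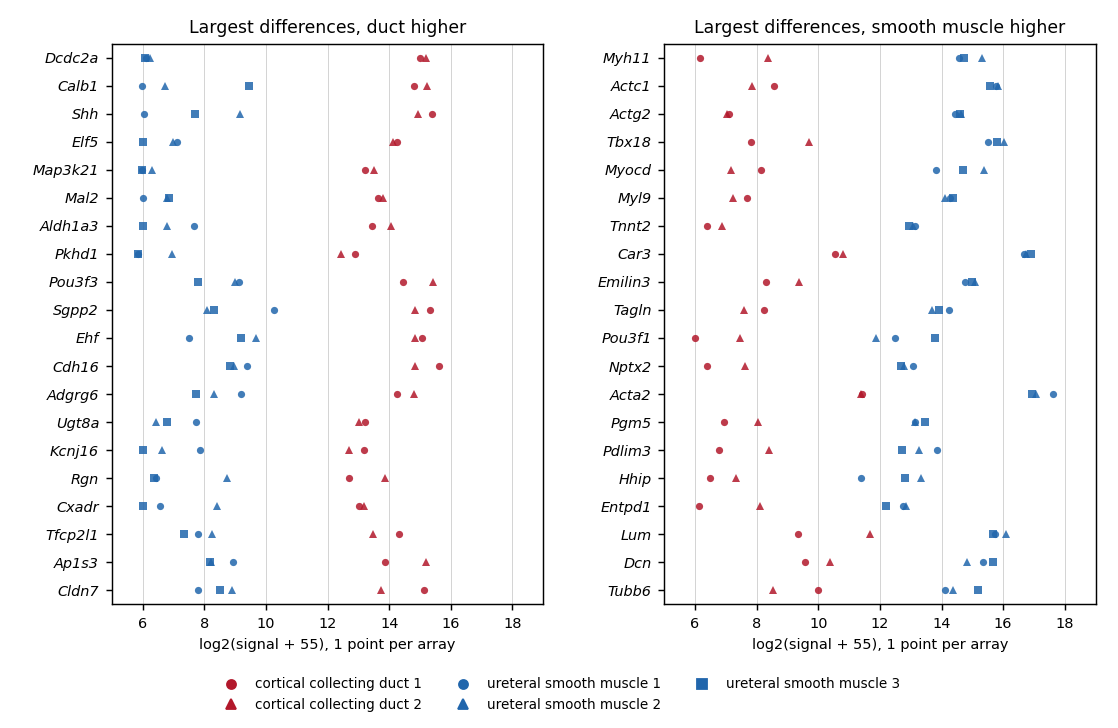
Log2 signal of the 20 genes with the largest called difference in each direction, 1 point per array, red for cortical collecting duct and blue for ureteral smooth muscle. In every row the red and blue points are apart; for Dcdc2a the duct arrays lie at 15.01 and 15.20 and the muscle arrays at 6.10, 6.25 and 6.09.

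Of the genes called in each of 17 fits (the main one, the alternatives and those without 1 array), 124 were higher and 68 lower in collecting duct. In order of moderated t the leading higher genes were Nceh1, Pou3f3, Gpr160, Ugt8a, Rnf128, Cdh16, Mal2, Fxyd4, Ap1s3 and Arhgef16. Of those not described elsewhere, Nceh1, a cholesterol ester hydrolase, differed by 5.62 ± 0.40, the orphan receptor Gpr160 by 5.00 ± 0.40, the ubiquitin ligase Rnf128 by 5.57 ± 0.47 and the exchange factor Arhgef16 by 5.07 ± 0.47. Nceh1 measured 11.70 and 11.63 in collecting duct and 6.20, 6.01 and 5.93 in smooth muscle. An order by moderated t favours genes with so small a spread, and these muscle values lay near the value of no signal. The leading lower genes were Emilin3, Myl9, Cnn1, Cnn2, Actc1, Tbx18, Tubb6, Pgm5, Tagln and Cpxm2. Of these, the calponin Cnn2 differed by -4.47 ± 0.41 and Cpxm2, a carboxypeptidase-like protein, by -4.94 ± 0.50.

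Genes of principal cell transport and identity were higher in collecting duct for 11 of 16 tested members (17 listed), lower for 0 and not called for 5, with a median log2 fold change of 3.19 against 0.02 over all genes. Listed genes not tested here had no probe set of their own name or stayed under the filter on dim signals. Of the water channels, Aqp3 of the basolateral membrane measured 12.22 and 11.97 in collecting duct and 8.41, 8.08 and 9.47 in smooth muscle, a difference of 3.44 ± 0.58 (adjusted p = 0.00196). Aqp4, its basolateral relative, differed by 3.58 ± 0.77, and Avpr2, the vasopressin receptor, by 3.58 ± 0.81. Aqp2, the apical channel that vasopressin regulates, measured 10.40 and 9.84 in collecting duct and 9.53, 8.85 and 8.13 in smooth muscle and was not called (1.28 ± 0.48, adjusted p = 0.141). Both duct arrays lay above all 3 muscle arrays, with no call.

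All 3 subunits of the epithelial sodium channel were called. Scnn1g, the gamma subunit, measured 12.93 and 12.33 in collecting duct and 7.23, 6.28 and 6.92 in smooth muscle, a difference of 5.82 ± 0.72 (adjusted p = 0.000232), where Scnn1a and Scnn1b differed by 2.83 ± 0.62 and 2.46 ± 0.45. Urothelium had a mean log2 signal of 12.59 for Scnn1g, between those of the 2 duct arrays. Fxyd4, a regulator of the sodium pump, measured 15.01 and 14.17 in collecting duct and 9.12, 8.67 and 8.62 in smooth muscle, a difference of 5.78 ± 0.52, and the pump's beta subunit Atp1b1 differed by 2.79 ± 0.45. The sodium and potassium genes not called were the channel Kcnj1, the mineralocorticoid receptor Nr3c2, its kinase target Sgk1 and Hsd11b2, which inactivates glucocorticoid, with log2 fold changes from 1.52 to 2.94. The 3 members with roles in identity and paracellular transport were all called: the transcription factors Elf5 at 7.49 ± 0.76 and Tfcp2l1 at 6.10 ± 0.61 and the claudin Cldn8 at 5.63 ± 0.72. Elf5 measured 14.26 and 14.13 in collecting duct and 7.10, 6.98 and 6.01 in smooth muscle, and had a mean of 8.73 in proximal tubule. Tfcp2l1 had a mean of 13.90 in collecting duct and 12.81 in proximal tubule. The count of 11 was 6 with label batch as a block and 7 without collecting duct replicate 1.

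Genes of intercalated cells, the acid-base cells of the duct, were called higher for 2 of 8 tested members (13 listed), with a median of 0.80. These were Rhcg, an ammonia channel, at 3.31 ± 0.62, and Car2, the cytosolic carbonic anhydrase, at 3.27 ± 0.73. Car2 was brighter in proximal tubule, at 13.28, 13.23 and 13.70, than in collecting duct, at 12.60 and 13.07. The summed signal of the list was 10990 to 11100 in collecting duct and 12860 to 16740 in proximal tubule. Foxi1, the factor that specifies intercalated cells, measured 9.32 and 8.68 in collecting duct and 6.50, 8.04 and 6.71 in smooth muscle (adjusted p = 0.0833). The anion exchangers Slc4a1 and Slc26a4, which define the mature subtypes, had log2 fold changes of 0.54 and 0.24 and overlapping arrays. Neither call of this list was made with label batch as a block or without collecting duct replicate 1.

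Ureteric bud and duct genes were called higher for 8 of 15 tested members (20 listed) and lower for 0, with a median of 2.72. The receptor tyrosine kinase Ret and its co-receptor Gfra1, through which GDNF drives branching, were among them. Ret measured 11.18 and 12.54 in collecting duct and 7.41, 7.19 and 6.07 in smooth muscle, a difference of 4.97 ± 1.03 (adjusted p = 0.00793), and Gfra1 differed by 4.70 ± 0.59 (adjusted p = 0.000269). The transcription factor Gata3 measured 14.33 and 13.93 in collecting duct and 9.19, 8.75 and 8.82 in smooth muscle, a difference of 5.21 ± 0.78, and the factors Emx2 and Sall1 differed by 4.70 ± 0.56 and 3.63 ± 0.79. Gata2 was brighter in all 3 muscle arrays than in both duct arrays and was not called: it measured 13.82 and 13.38 in collecting duct and 14.82, 14.44 and 14.81 in smooth muscle (adjusted p = 0.208). Wnt11, a ligand of ureteric tips, had a log2 fold change of 1.12 and was not called. The count of 8 became 3 with label batch as a block, 5 without collecting duct replicate 1 and 4 without replicate 2.

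Junction and polarity genes of epithelia gave the highest share of calls on the duct side: 29 of 36 tested members (38 listed) were higher, 0 were lower, and the median was 3.85. All 4 adhesion members were called. The classical epithelial cadherin Cdh1 measured 14.69 and 14.41 in collecting duct and 9.58, 9.22 and 9.37 in smooth muscle, a difference of 5.16 ± 0.50, and the kidney cadherin Cdh16 measured 15.62 and 14.83 in collecting duct and 9.40, 8.97 and 8.85 in smooth muscle, a difference of 6.15 ± 0.53 (adjusted p = 2.93e-05). Epcam, an epithelial adhesion molecule, differed by 5.78 ± 0.61. Smooth muscle replicate 1, at 11.88, stood above the other 2 muscle arrays in Epcam, at 9.52 and 9.86.

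Of 12 tight junction members 10 were called. Cldn7 measured 15.13 and 13.74 in collecting duct and 7.80, 8.89 and 8.50 in smooth muscle, a difference of 6.04 ± 0.57, and Cldn3, Cldn4 and Cldn6 differed by 4.20 ± 0.74, 2.15 ± 0.54 and 3.92 ± 0.53. Occludin, Ocln, differed by 5.02 ± 0.90, with muscle values of 11.15, 8.23 and 7.15 that were far apart from each other. Tjp1, the scaffold ZO-1, measured 13.70 and 14.48 in collecting duct and 13.75, 14.08 and 14.68 in smooth muscle: its arrays overlapped and its log2 fold change was -0.08 ± 0.44 (adjusted p = 0.954). The polarity protein Pard6b measured 13.28 and 12.48 in collecting duct and 7.76, 7.41 and 7.26 in smooth muscle, a difference of 5.41 ± 0.41, and Mal2, which carries cargo to the apical membrane, measured 13.64 and 13.80 in collecting duct and 6.02, 6.80 and 6.86 in smooth muscle, a difference of 7.16 ± 0.61.

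Regulators and surface proteases of epithelia were called as well. The splicing factors Esrp1 and Esrp2 differed by 4.56 ± 0.48 and 3.74 ± 0.56, and the ETS factor Ehf by 6.17 ± 0.63. Grhl2, a grainyhead-like factor of epithelia, differed by 2.69 ± 0.60, and its relative Grhl1 was not called at 0.93 ± 0.76. All 5 membrane proteases and inhibitors were higher, led by the inhibitor Spint2 at 4.82 ± 0.54, the protease Tmprss2 at 4.68 ± 0.67 and Prss8, which activates the epithelial sodium channel, at 4.58 ± 0.58.

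The promoters of these genes are shown because they moved together and hold the 6-letter E-box CACCTG, the site that Snail and Zeb repressors are known to read in epithelial genes. The motif was searched on both strands in RefSeq windows of 300 bases around each start site (GRCm38.p6), where its reverse reads CAGGTG. It stood in the promoter of 13 of 17 called junction and polarity genes with a window and in 6 of 8 called principal cell genes. Among all tested members with a window, called or not, it stood in 17 of 23 and 6 of 12. It stood in 20.2% of all promoter windows, and by gene all tested genes held it in 21.7%, genes called higher in 42.8% and genes called lower in 18.6%. The grainyhead site AACCNGTT stood in 3.07% of the genes called higher and 2.29% of all tested genes. These are descriptions of letters, and base composition was not matched. The 250 bases before the start site follow for Cldn7 (chr11:69965171-69965420, plus strand), Epcam (chr17:87635729-87635978, plus strand) and Elf5 (chr2:103411848-103412097, plus strand), 5′ to 3′ on the gene's strand with the E-box in capitals.
Cldn7: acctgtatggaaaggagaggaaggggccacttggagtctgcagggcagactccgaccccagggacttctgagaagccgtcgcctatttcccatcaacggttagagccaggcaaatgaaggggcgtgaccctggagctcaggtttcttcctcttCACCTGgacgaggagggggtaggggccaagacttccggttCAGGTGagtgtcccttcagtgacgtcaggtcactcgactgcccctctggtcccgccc
Epcam: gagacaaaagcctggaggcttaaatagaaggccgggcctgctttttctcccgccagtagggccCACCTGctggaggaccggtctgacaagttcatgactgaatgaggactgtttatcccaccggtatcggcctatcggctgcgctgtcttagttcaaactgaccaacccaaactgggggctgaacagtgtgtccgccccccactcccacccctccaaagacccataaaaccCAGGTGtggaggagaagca
Elf5: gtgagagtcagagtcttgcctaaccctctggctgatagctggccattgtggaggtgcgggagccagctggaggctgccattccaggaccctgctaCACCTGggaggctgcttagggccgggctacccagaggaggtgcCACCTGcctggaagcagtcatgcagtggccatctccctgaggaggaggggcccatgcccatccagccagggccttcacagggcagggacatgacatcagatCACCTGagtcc
Cldn7 held the E-box at 97 and 57 bases before its start site, Epcam at 187 and 19 bases, and Elf5 had 3 copies between 155 and 11 bases before it.

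Keratin and desmosome genes were called higher for 7 of 16 tested members (20 listed), lower for 0, with a median of 2.08. The simple-epithelium keratins Krt8 and Krt18 differed by 2.74 ± 0.52 and 3.42 ± 0.56; Krt8 stayed bright in muscle tissue at 12.64 to 13.79. Of the desmosome members, the plaque protein Dsp and the cadherins Dsg2 and Dsc2 differed by 4.85 ± 0.57, 5.21 ± 0.84 and 5.71 ± 0.78. Dsc2 measured 11.63 and 13.78 in collecting duct and 5.89, 8.15 and 6.96 in smooth muscle. Krt5, a keratin of basal cells, had overlapping arrays and a log2 fold change of -0.17 ± 0.50. The block by label batch left 4 calls in this list in place of 7.

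Contractile genes of smooth muscle went the other way. Of 35 tested members (36 listed) 24 were lower in collecting duct, 0 were higher and 11 were not called, with a median log2 fold change of -3.18. All 3 actins were called. Acta2, the smooth muscle alpha actin, measured 11.44 and 11.37 in collecting duct and 17.63, 17.07 and 16.94 in smooth muscle, a difference of -5.81 ± 0.62 (adjusted p = 8.36e-05). Its gamma counterpart Actg2 measured 7.11 and 7.04 in collecting duct and 14.43, 14.62 and 14.61 in smooth muscle, a difference of -7.48 ± 0.71, and the cardiac actin Actc1 measured 8.56 and 7.85 in collecting duct and 15.78, 15.84 and 15.57 in smooth muscle, a difference of -7.53 ± 0.71. The 3 genes are close paralogs, and how far their probe sets take up each other's transcripts was not tested. In each of them the duct arrays lay far below all 3 muscle arrays.

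Myosin and its regulators gave 6 of 7 calls. The regulatory light chain Myl9 measured 7.70 and 7.23 in collecting duct and 14.29, 14.10 and 14.36 in smooth muscle, a difference of -6.79 ± 0.55 (adjusted p = 2.7e-05), and the kinase of that chain, Mylk, differed by -3.95 ± 0.67. Ppp1r14a, an inhibitor of myosin phosphatase, differed by -3.59 ± 0.58, and the phosphatase subunit Ppp1r12a was not called at -1.29 ± 0.42. Of the thin filament genes, Tagln (SM22) measured 8.24 and 7.59 in collecting duct and 14.25, 13.69 and 13.93 in smooth muscle, a difference of -6.04 ± 0.60, and calponin Cnn1 measured 5.99 and 5.95 in collecting duct and 10.79, 10.79 and 11.41 in smooth muscle, a difference of -5.03 ± 0.44. Both duct values of Cnn1 lay near the value of no signal. Tpm2, a tropomyosin, differed by -5.08 ± 0.49, but its probe sets without the x, s and a types, which can take up related transcripts, gave -0.31 (adjusted p = 0.873).

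Dense-body and adhesion genes were called for 8 of 14 members. The largest differences were of Pgm5, a phosphoglucomutase relative of adherens junctions, at -5.76 ± 0.55, of Pdlim3, a PDZ and LIM protein of actin anchorage, at -5.70 ± 0.65, and of Csrp1, a LIM protein, at -4.58 ± 0.79. Desmin, Des, measured 6.91 and 6.43 in collecting duct and 9.28, 8.25 and 8.45 in smooth muscle and was not called (adjusted p = 0.0732). Myocd, the coactivator of smooth muscle genes, measured 8.15 and 7.18 in collecting duct and 13.81, 15.38 and 14.70 in smooth muscle, a difference of -6.96 ± 0.99 (adjusted p = 0.000628). Its DNA-binding partner Srf differed by -1.98 ± 0.44, a call not made without the x, s and a probe sets (-1.75, adjusted p = 0.264), with label batch as a block, or without either collecting duct array. The related coactivators Mrtfa and Mrtfb were not called, at -0.07 ± 0.54 and 0.55 ± 0.49, and their arrays overlapped. The count of 24 was 15 with label batch as a block.

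Promoters of contractile genes are printed for the CArG box, the site that serum response factor binds, searched by name on both strands in the same 300-base windows. It stood in 5 of 20 called contractile genes with a window and in 7 of 31 tested ones. It stood in 1.63% of all promoter windows, and by gene all tested genes held it in 1.57%, genes called lower in 8.7% and genes called higher in 1.54%. The 250 bases before the start site follow for Myl9 (chr2:156775214-156775463, plus strand), Actc1 (chr2:114052876-114053125, minus strand) and Srf (chr17:46556163-46556412, minus strand), 5′ to 3′ on the gene's strand with the CArG box in capitals.
Myl9: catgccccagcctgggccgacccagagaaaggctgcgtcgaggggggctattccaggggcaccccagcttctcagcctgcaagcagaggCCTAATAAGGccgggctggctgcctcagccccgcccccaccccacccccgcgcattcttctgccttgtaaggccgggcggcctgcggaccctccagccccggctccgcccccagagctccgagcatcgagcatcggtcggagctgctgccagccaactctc
Actc1: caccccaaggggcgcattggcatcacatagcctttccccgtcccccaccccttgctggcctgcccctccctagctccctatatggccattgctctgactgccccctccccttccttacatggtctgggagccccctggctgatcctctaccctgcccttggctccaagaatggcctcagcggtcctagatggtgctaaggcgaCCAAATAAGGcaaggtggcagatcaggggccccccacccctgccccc
Srf: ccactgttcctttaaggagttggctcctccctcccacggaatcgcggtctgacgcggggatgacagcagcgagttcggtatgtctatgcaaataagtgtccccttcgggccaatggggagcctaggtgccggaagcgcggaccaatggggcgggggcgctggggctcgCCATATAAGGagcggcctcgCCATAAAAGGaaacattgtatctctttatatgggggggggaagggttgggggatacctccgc
Srf held 2 boxes, at 82 and 62 bases before its start site, Actc1 1 box at 47 bases and Myl9 1 box at 161 bases.

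Channels and calcium stores that serve contraction were called lower for 4 of 16 tested members (22 listed) and higher for 0, with a median of -0.74. Kcnma1 and Kcnmb1, the pore and beta subunit of the large-conductance calcium-activated potassium channel, differed by -3.43 ± 0.51 and -2.90 ± 0.62. Ano1, a calcium-activated chloride channel, measured 10.32 and 10.19 in collecting duct and 15.07, 14.08 and 14.36 in smooth muscle, a difference of -4.24 ± 0.55. Its mean log2 signal in urothelium was 14.13, within the range of the muscle arrays. The ryanodine receptor Ryr3 differed by -3.60 ± 0.89. Cacna1c, the L-type calcium channel, measured 8.82 and 8.56 in collecting duct and 9.66, 9.85 and 9.55 in smooth muscle and was not called, and Kit, a marker of pacemaker cells, had overlapping arrays. Of the vasoactive receptors and cyclic GMP genes, 2 of 12 tested members (25 listed) were lower and 0 higher, with a median of -1.44. These were Pde5a, the cyclic GMP phosphodiesterase, at -4.31 ± 0.54, and Prkg1, the cyclic GMP-dependent kinase, at -2.88 ± 0.51. The endothelin receptor Ednrb measured 12.00 and 13.56 in collecting duct and 14.12, 14.39 and 14.32 in smooth muscle and was not called. Both with label batch as a block and without collecting duct replicate 1, the calcium list had 2 calls in place of 4 and the vasoactive list 1 in place of 2.

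Transcription factors of the ureteral mesenchyme were called lower for 7 of 15 tested members (19 listed) and higher for 1, with a median of -1.90. Tbx18 measured 7.83 and 9.71 in collecting duct and 15.52, 16.04 and 15.80 in smooth muscle, a difference of -7.01 ± 0.66 (adjusted p = 4.42e-05). The T-box genes Tbx2 and Tbx3 were not called, at 1.74 ± 0.51 and 0.74 ± 0.61, and both had their higher values in the duct. Tshz3 and Tshz2, teashirt factors of ureteral muscle, differed by -3.17 ± 0.48 and -1.88 ± 0.39. Foxf1, a forkhead target of hedgehog signalling, measured 9.26 and 8.82 in collecting duct and 14.59, 13.38 and 13.90 in smooth muscle, a difference of -4.92 ± 0.78. Tcf21, Gata6 and Nr2f1 differed by -4.05 ± 0.67, -3.16 ± 0.58 and -2.20 ± 0.62. Eya1, known from nephron progenitors, was the 1 member called higher in the duct. It measured 10.91 and 12.63 in collecting duct and 6.44, 8.20 and 8.25 in smooth muscle, a difference of 4.14 ± 0.84. Its call was not made without collecting duct replicate 2 or with label batch as a block. The 7 lower calls became 2 with that block and 4 without collecting duct replicate 1.

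**Figure D2:**
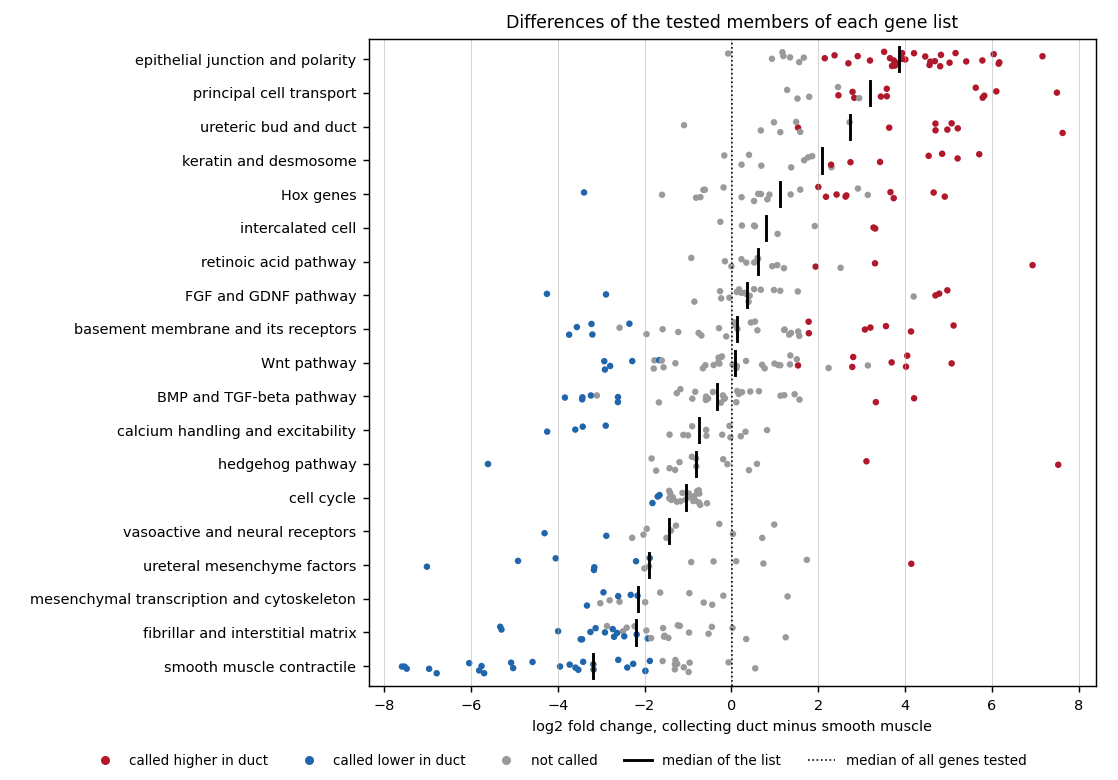
Log2 fold change, collecting duct minus smooth muscle, of every tested member of 19 gene lists, ordered by their median (black bar), with the median of all genes tested as a dotted line at 0.02. Red points are called higher and blue points called lower in collecting duct; junction and polarity genes (median 3.85) and contractile genes (median -3.18) lie at the 2 ends.

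In the hedgehog pathway 2 of 15 tested members (17 listed) were called higher in collecting duct and 1 lower, with a median of -0.82. The ligand Shh measured 15.39 and 14.93 in collecting duct and 6.05, 9.14 and 7.71 in smooth muscle, a difference of 7.52 ± 0.93 (adjusted p = 0.000245). Urothelium had a mean of 13.41 and proximal tubule one of 8.62. The receptor-side inhibitor Hhip, itself a target of the pathway, went the other way and measured 6.48 and 7.35 in collecting duct and 11.40, 13.34 and 12.82 in smooth muscle, a difference of -5.61 ± 0.77 (adjusted p = 0.000477). The co-receptor Cdon was higher in the duct, at 3.11 ± 0.47, while the co-receptors Boc and Gas1 were not called, at -0.81 ± 0.44 and -0.82 ± 0.87. The receptor and target Ptch1 measured 13.67 and 14.87 in collecting duct and 14.76, 16.27 and 15.69 in smooth muscle and was not called (adjusted p = 0.181), and its duct and muscle arrays overlapped. Gli1, the transcription factor that the pathway induces, measured 8.23 and 7.97 in collecting duct and 9.45, 9.72 and 10.64 in smooth muscle and was not called either (adjusted p = 0.108), although all 3 muscle arrays lay above both duct arrays. Gli2 and Gli3 had the same order of arrays and no call. The ligand Ihh was not called either, at -0.19 ± 0.50, nor were Hhat and Disp1, which modify and release the ligands. The Cdon call was not made with label batch as a block.

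Wnt pathway genes were called in both directions, 7 of 40 tested members (47 listed) higher and 5 lower, with a median of 0.09. All 3 called ligands were higher in the duct. Wnt9b, which acts on the mesenchyme around the ureteric bud, measured 13.38 and 12.21 in collecting duct and 8.03, 8.04 and 7.11 in smooth muscle, a difference of 5.07 ± 0.69. Wnt4 differed by 4.02 ± 0.69 and Wnt7b, a stalk ligand that acts on the surrounding interstitium, by 1.53 ± 0.41. The frizzled receptors split: Fzd4, Fzd5 and Fzd6 were higher in the duct, at 2.78 ± 0.60, 3.69 ± 0.59 and 4.05 ± 0.63, and Fzd1 was lower, at -1.67 ± 0.42. Ror1, a receptor of non-canonical Wnt signals, was lower, at -2.29 ± 0.57.

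The secreted Wnt inhibitors split as well. Dkk1 was higher in the duct, at 2.80 ± 0.63, and Dkk3 and Sfrp2 were lower, at -2.93 ± 0.59 and -2.91 ± 0.48. Sfrp2 was bright throughout and measured 14.50 and 14.21 in collecting duct and 17.96, 16.97 and 16.87 in smooth muscle. Nkd1, an inducible antagonist inside the cell, measured 10.39 and 9.83 in collecting duct and 13.29, 13.19 and 12.24 in smooth muscle, a difference of -2.79 ± 0.50. Axin2 and Lef1, common readouts of canonical signalling, had log2 fold changes of -0.41 and -0.30 and were not called. Of these calls, Wnt9b and Nkd1 were made with label batch as a block. The counts were 4 higher and 2 lower without collecting duct replicate 2, and 3 lower without collecting duct replicate 1 or without smooth muscle replicate 3.

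Among BMP and TGF-beta genes 2 of 32 tested members (35 listed) were higher and 6 lower, with a median of -0.34. The BMP ligands were divided. Bmp7 was higher in the duct and measured 11.42 and 11.84 in collecting duct and 7.67, 9.08 and 8.16 in smooth muscle, a difference of 3.32 ± 0.57. Bmp4 measured 9.08 and 8.76 in collecting duct and 12.60, 12.27 and 11.60 in smooth muscle, a difference of -3.24 ± 0.48 (adjusted p = 0.000888), and Bmp5 differed by -3.43 ± 0.80. The TGF-beta family ligands Inhba and Tgfb3 were lower in the duct, at -2.61 ± 0.65 and -2.62 ± 0.73. Of 10 receptors, Bmpr1b was called, at 4.21 ± 0.83, and its fellow type I receptor Bmpr1a was not, at 0.13 ± 0.48. The inhibitors Fst, which binds activin, and Bambi, a decoy receptor, were lower, at -3.84 ± 0.84 and -3.44 ± 0.44. The targets Id1 to Id4 gave no call, with log2 fold changes from -1.18 to 0.63. The 6 lower calls became 2 with label batch as a block and 2 without collecting duct replicate 1, and the Bmp7 call was not made with the block.

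In the FGF and GDNF pathways 3 of 22 tested members (27 listed) were higher and 2 lower, with a median of 0.37. Fgf9 was higher in the duct and measured 11.99 and 11.65 in collecting duct and 7.58, 7.46 and 6.07 in smooth muscle, a difference of 4.78 ± 0.54 (adjusted p = 0.000113), while Fgf7, a mesenchymal ligand for epithelial FGF receptors, measured 8.84 and 9.37 in collecting duct and 11.54, 12.60 and 11.85 in smooth muscle, a difference of -2.89 ± 0.58. The GDNF co-receptor Gfra1 and the related Gfra2 went opposite ways: Gfra2 measured 8.86 and 9.49 in collecting duct and 13.23, 13.88 and 13.16 in smooth muscle, a difference of -4.25 ± 0.55. That value comes from a probe set of the x type, and without such probe sets Gfra2 gave 0.47 (adjusted p = 0.726). The Fgf7 call was not made with label batch as a block or without collecting duct replicate 1. Gdnf, which nephron progenitors around the ureteric tips are known to make, measured 10.31 and 10.56 in collecting duct and 5.96, 6.61 and 6.15 in smooth muscle and was not called (adjusted p = 0.0697). None of the 8 feedback and target genes of FGF signalling was called, their median being 0.37.

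Retinoic acid genes were called higher for 3 of 15 tested members (18 listed) and lower for 0, with a median of 0.61. Aldh1a3, which makes retinoic acid, measured 13.43 and 14.07 in collecting duct and 7.66, 6.79 and 6.0 in smooth muscle, a difference of 6.93 ± 0.67 (adjusted p = 4.42e-05). Cyp26b1, which degrades it, was also higher in the duct and measured 10.92 and 10.32 in collecting duct and 7.18, 7.28 and 7.48 in smooth muscle, a difference of 3.30 ± 0.47. Dhrs3, which turns retinaldehyde back to retinol, differed by 1.94 ± 0.44. The receptors Rara, Rarb and Rarg were not called and had overlapping arrays.

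**Figure D3:**
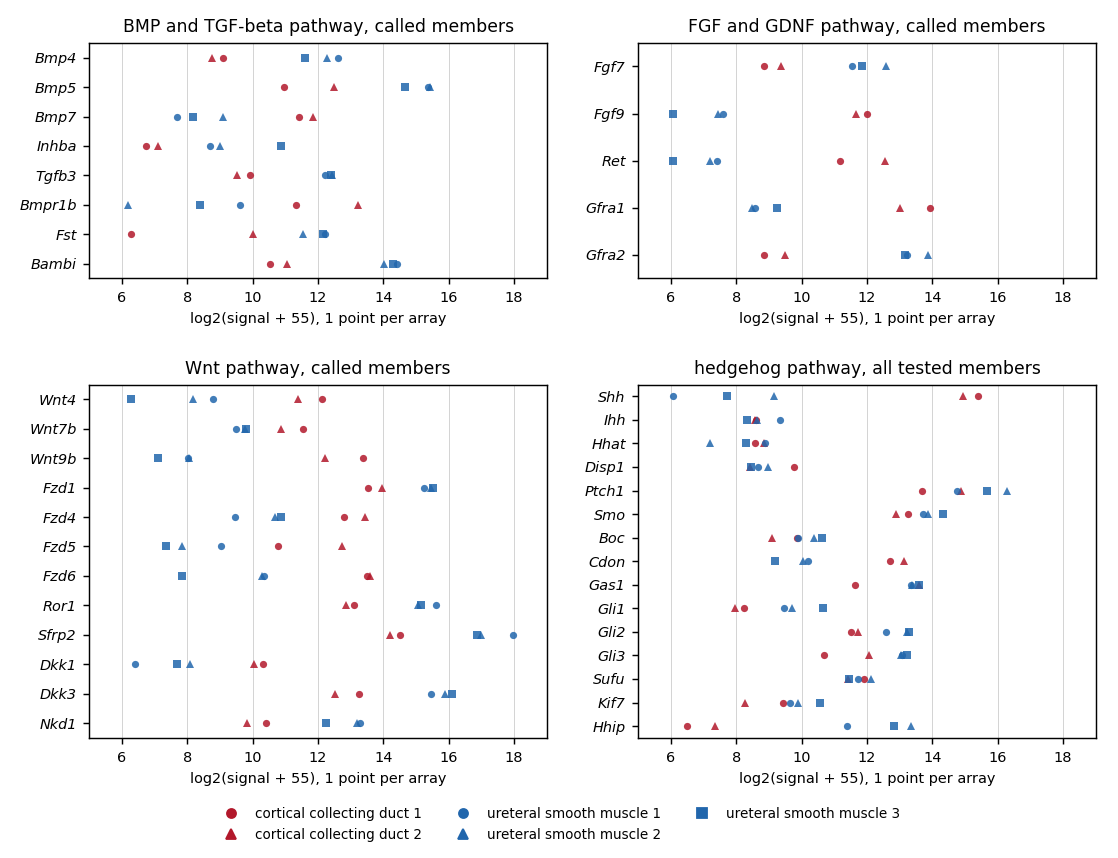
Log2 signal of the called members of the BMP and TGF-beta, Wnt, and FGF and GDNF pathways and of all 15 tested hedgehog members, 1 point per array. Shh lies at 15.39 and 14.93 in the duct (red) and at 6.05 to 9.14 in muscle (blue), Hhip at 6.48 and 7.35 against 11.40 to 13.34, and the points of Ptch1 overlap.

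Fibrillar and interstitial matrix genes were called lower in the duct for 14 of 32 tested members (33 listed) and higher for 0, with a median of -2.21. Of 10 collagens 8 were called. The 3 collagen VI chains Col6a1, Col6a2 and Col6a3 differed by -3.44 ± 0.63, -3.47 ± 0.56 and -3.99 ± 0.58, and the collagen I chain Col1a1 by -2.91 ± 0.54. Col1a2 measured 12.36 and 14.48 in collecting duct and 15.90, 16.13 and 15.73 in smooth muscle and was not called (adjusted p = 0.111). The proteoglycans Dcn and Lum gave the largest differences: Dcn measured 9.57 and 10.38 in collecting duct and 15.34, 14.83 and 15.66 in smooth muscle, a difference of -5.30 ± 0.63, and Lum measured 9.33 and 11.66 in collecting duct and 15.72, 16.08 and 15.66 in smooth muscle, a difference of -5.33 ± 0.84. Lum was brighter in collecting duct replicate 2 than in replicate 1. Elastin, Eln, was not called at -0.53 ± 0.41. The count of 14 was 6 with label batch as a block and without collecting duct replicate 1, and 9 without replicate 2.

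Basement membrane genes and their receptors were called in both directions, 7 of 33 tested members (39 listed) higher and 5 lower, with a median of 0.14. The laminin alpha chains divided by compartment. Lama5 and Lama1 were higher in the duct, at 3.07 ± 0.48 and 4.13 ± 0.85, and Lama2, the chain of muscle basement membrane, was lower, at -3.74 ± 0.58. Lama4 was lower as well, at -2.35 ± 0.68, and the collagen IV chain Col4a5 was higher, at 1.78 ± 0.51. The duct also had higher Fras1 and Frem2, matrix proteins mutated in Fraser syndrome, at 5.11 ± 0.88 and 3.56 ± 0.47, and Npnt, a ligand of integrin alpha 8, at 3.20 ± 0.50. The receptor of that ligand, Itga8, was not called, at -1.59 ± 0.94, with all 3 muscle arrays above both duct arrays. The integrin chains divided too, with Itga6 higher at 1.78 ± 0.49 and Itga1, Itga9 and Itgb3 lower. Itga1 measured 9.21 and 9.88 in collecting duct and 12.83, 13.45 and 13.03 in smooth muscle, a difference of -3.56 ± 0.49, and the other two differed by -3.22 ± 0.62 and -3.20 ± 0.63. The 7 higher and 5 lower calls became 2 and 3 with label batch as a block, the higher calls 4 without collecting duct replicate 1 and the lower calls 3 without replicate 2.

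Mesenchymal transcription factors and cytoskeletal genes were called lower for 5 of 15 tested members, with a median of -2.16. Vim, the intermediate filament vimentin, differed by -3.33 ± 0.57, Pdgfra by -2.95 ± 0.76, and the factors Twist2, Twist1 and Zeb2 by -2.61 ± 0.42, -2.16 ± 0.52 and -2.32 ± 0.58. Snai2 measured 11.12 and 12.67 in collecting duct and 15.25, 12.97 and 15.18 in smooth muscle and was not called, and Snai1 had overlapping arrays. Cdh11, a mesenchymal cadherin, was not called at -3.02 ± 1.23, and Prrx1 measured 6.80 and 11.36 in collecting duct and 10.86, 12.56 and 12.24 in smooth muscle: collecting duct replicate 2 stood among the muscle arrays and replicate 1 far below them. The 5 calls became 1 with label batch as a block and without collecting duct replicate 1, and 2 without smooth muscle replicate 2 or 3.

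Hox genes, which pattern the body axis, were called higher in the duct for 9 of 26 tested members (39 listed) and lower for 1, with a median of 1.12. The calls fell in 2 of the 4 clusters. In the Hoxb cluster the neighbours Hoxb2, Hoxb3, Hoxb4, Hoxb5 and Hoxb6 were all higher, at 2.18 ± 0.47, 3.66 ± 0.48, 2.64 ± 0.54, 4.91 ± 0.50 and 2.63 ± 0.46. Hoxb5 measured 11.28 and 11.05 in collecting duct and 6.32, 6.10 and 6.34 in smooth muscle, with all muscle values near that of no signal. Hoxb1 and Hoxb9, towards the 2 ends of the cluster, were not called.

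The Hoxd cluster changed direction along its length. Hoxd1, Hoxd3, Hoxd8 and Hoxd9 were higher in the duct, at 3.74 ± 0.63, 4.66 ± 0.73, 2.00 ± 0.55 and 2.42 ± 0.57. Hoxd10 and Hoxd11 were not called, at -0.61 ± 0.95 and -0.82 ± 0.71, and Hoxd13 was lower and measured 7.43 and 8.10 in collecting duct and 10.63, 11.69 and 11.17 in smooth muscle, a difference of -3.40 ± 0.60 (adjusted p = 0.00255). None of 6 Hoxa and 6 Hoxc genes was called. With label batch as a block 2 of the 9 higher calls were made, and the call of Hoxd13 was not. Without collecting duct replicate 1 the higher calls numbered 5.

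**Figure D4:**
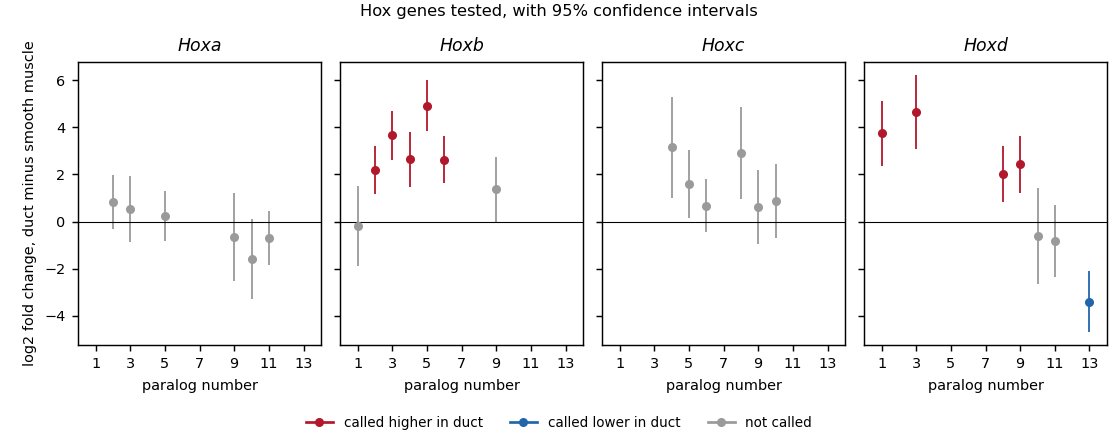
Log2 fold change, collecting duct minus smooth muscle, of the 26 tested Hox genes by paralog number in each cluster, with 95% confidence intervals from limma. Red is called higher and blue called lower in the duct; Hoxb5 stands at 4.91 and Hoxd13 at -3.40.

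Replication and mitosis genes were called lower in the duct for 3 of 23 tested members (24 listed) and higher for 0, with a median of -1.06. The called genes were the mitotic kinase Cdk1 at -1.82 ± 0.48, the centromere histone Cenpa at -1.66 ± 0.48 and the G1 cyclin Ccnd1 at -1.70 ± 0.47. All 23 had a negative log2 fold change, from -1.82 to -0.56. In 20 of them the muscle arrays lay wholly above the duct arrays, an order found in 17.8% of all genes tested. The proliferation antigen Mki67 measured 14.18 and 14.79 in collecting duct and 14.77, 15.77 and 15.18 in smooth muscle and was not called (adjusted p = 0.386). Quantile normalization, a pseudocount of 12, no filter, and leaving out collecting duct replicate 2 or smooth muscle replicate 2 each left 1 call. No member was called with label batch as a block, in a fit of the 5 arrays alone, without collecting duct replicate 1, or without smooth muscle replicate 1 or 3.

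The labels were checked against markers of both compartments and of other cells. Principal cell genes summed to a signal of 187600 to 225600 in collecting duct and 15650 to 22520 in smooth muscle. The other epithelia lay between these, at 92620 to 123300 in proximal tubule and 72210 to 95180 in urothelium. Such sums weigh bright genes most, and members differed. Log2 signals of the brightest, Atp1b1, were 16.26, 16.09 and 16.75 in proximal tubule, against 16.46 and 16.07 in the duct. Tfcp2l1 means were 12.81 and 13.90. Proximal tubule was far below the duct for Cldn8 (5.89, 8.80 and 6.10 against 14.04 and 14.63) and for Elf5 (mean 8.73 against 14.19). The sums therefore do not stand for each member. Contractile genes summed to 117300 to 157600 in collecting duct and 885400 to 1043000 in smooth muscle, where proximal tubule had 121700 to 136000. The summed signal of 15 proximal tubule markers was 5937 to 12500 in collecting duct, 4441 to 5280 in smooth muscle and 173000 to 275200 in proximal tubule. In collecting duct, replicate 2 was the higher array: Slc2a2 measured 6.37 and 10.39 in replicates 1 and 2. The endocytic receptor Lrp2 was called higher in the duct, at 3.93 ± 1.02, and the water channel Aqp1 lower, at -3.51 ± 0.66. Together they made up 13.3% of the 15 markers, against 8.27% called of all genes tested. The Lrp2 call was not made with label batch as a block or without either duct array or smooth muscle replicate 2 or 3, and the Aqp1 call was not made without collecting duct replicate 1. Renal interstitium markers summed to 13240 and 30560 in the 2 duct arrays, with replicate 2 the higher, and to 193400 to 212900 in muscle, with 4 of 8 tested members called lower in the duct: Tcf21, Pdgfra, Dcn and Lum. With the block 2 were called. Endothelial markers gave 0 calls of 10, with summed signals of 7935 to 8634 in duct and 10170 to 13230 in muscle. Podocyte markers gave 0 of 4, with sums of 7279 to 10630 in duct and 3531 to 5100 in muscle. Erythroid markers gave 0 of 3, with sums of 9900 to 10340 and 8800 to 13240. At the share of 8.27% called over all genes, lists this short may give no call. The lack of calls therefore does not speak of absent cells. Of 4 neural markers 1 was called, the ubiquitin hydrolase Uchl1 at 1.83 ± 0.51.

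Of 8 urothelial markers 1 was called (12.5%, against 8.27% of all genes tested), the forkhead factor Foxa1 at 2.31 ± 0.53. The summed signal of the list was 11280 to 14010 in collecting duct and 3648 to 7662 in smooth muscle. In urothelium it was 38940 to 113100. The uroplakins Upk1b and Upk3a, which define urothelium, had overlapping arrays, with log2 fold changes of -0.12 and 0.30. Loop of Henle and distal tubule markers gave 2 calls of 8, Pou3f3 and the claudin Cldn16 at 2.48 ± 0.54. Pou3f3 was bright in every epithelium, with a mean log2 signal of 14.92 in collecting duct, 14.14 in proximal tubule and 13.87 in urothelium. Slc12a1, the sodium cotransporter that defines the thick ascending limb, measured 11.62 and 13.28 in collecting duct and 9.37, 6.79 and 7.72 in smooth muscle and was not called (adjusted p = 0.0777). Leukocyte markers gave 2 calls of 6. Ptprc, the pan-leukocyte phosphatase CD45, measured 11.10 and 12.49 in collecting duct and 6.50, 7.43 and 6.02 in smooth muscle, a difference of 5.15 ± 1.17, and the macrophage receptor Mrc1 differed by 2.60 ± 0.58. Other macrophage genes, Csf1r, Cx3cr1, Adgre1 and Tyrobp, were not called, with log2 fold changes from 0.14 to 0.38. Of nephron progenitor markers Eya1 was called higher and Ccnd1 lower, and Six2, which defines these cells, measured 10.01 and 10.45 in collecting duct and 9.50, 8.26 and 8.24 in smooth muscle and was not called. The marker calls of Foxa1, Cldn16, Ptprc, Mrc1, Uchl1 and Ccnd1 were not made with label batch as a block, nor without either of the duct arrays, while Pou3f3 was called in each of these fits. The part of these cells in the differences above was not tested.

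**Figure D5:**
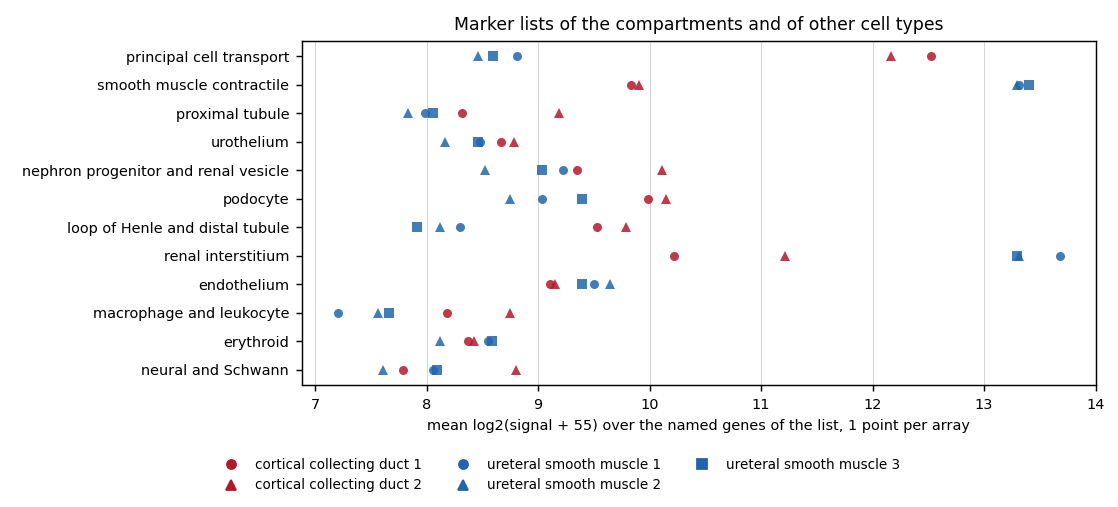
Mean log2 signal over the named genes of the principal cell, contractile and 10 other marker lists, 1 point per array. The contractile list lies at 13.30 to 13.40 in the muscle arrays and at 9.83 and 9.91 in the duct arrays. For all 10 other marker lists collecting duct replicate 2 lies to the right of replicate 1. For the principal cell list replicate 2 lies to the left, at 12.16 against 12.52.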

How the data were processed

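The deposited values are array intensity, 1 signal per probe set and array, scaled by the authors with GCOS to a common trimmed mean, per the submitters' processing notes and the values themselves. Of 45101 probe sets, 64 were controls and 34945 had 1 gene symbol in the platform annotation. Each gene was represented by the probe set with the highest mean over 11 arrays. Genes had to exceed the array median in at least 2 arrays. Log2(signal + 55) was fitted with limma 3.58.1 (R 4.3.3), 4 compartments in 1 model with no covariate (7 residual degrees of freedom), and p-values were adjusted over 13614 genes by Benjamini-Hochberg.

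The genes and lists described were chosen with earlier results of these data known. Named genes were the 20 largest called differences in each direction with non-overlapping arrays (clone names skipped), members of the lists, family members called in opposite directions, and up to 10 genes in each direction with the largest t among those called in every alternative fit. Alternatives changed the normalization, pseudocount, filter, probe set choice, variance model and arrays used, added label batch as a block, or left out 1 array. On simulated data with 13614 genes the collecting duct against smooth muscle test recovered 65 of 100 changes of 3 log2 units and 7 of 100 of 1.5, with 2 false calls. No other gene was changed there and the noise was independent between genes, whereas the data gave 1126 calls. The adjusted p depends on how many genes change, so these rates do not carry over to the data. The number of arrays limits the precision. Promoter windows come from RefSeq (GRCm38.p6), and 10949 of the tested genes had one. Figures were drawn with matplotlib 3.10.9 in Python 3.11.15.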

Additional observations from a re-analysis of the deposited data

How the results depend on the processing

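With label batch as a fixed block the counts of genes were 189 higher and 113 lower in collecting duct, of which 183 and 111 were among those called without it, and the median standard error was 0.711 in place of 0.523. Leaving out 1 array at a time gave 317 to 607 higher and 203 to 349 lower genes, the lowest without collecting duct replicate 1; a lone remaining duct array was assumed to vary like the other groups. Under the other alternatives the counts stayed within 1.5 times of 669 and 457, from 541 to 742 higher and from 376 to 550 lower. Of 197 named or listed genes called, 101 were called with the block. Of those genes, Gfra2 changed sign without x, s and a probe sets, to 0.47. No paired analysis was possible because the replicate numbers follow the order of deposition and link no samples across compartments. The array design gives no depth, and genes near a log2 signal of 5.78 carry little information on fold size.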

Other observations

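The 2 collecting duct arrays differed by at least 2 log2 units in 531 genes, 256 of them higher in replicate 1 and 275 in replicate 2. Xist, given in the report, had the widest range. Mef2c, a muscle and endothelial transcription factor, stood at 7.57 and 12.26 in replicates 1 and 2, Cd36, a fatty acid receptor, at 5.89 and 10.68, and Chgb, a granin of neuroendocrine granules, at 7.23 and 11.86. The laminin gamma chain Lamc1 went the other way, at 13.54 and 9.41. The smooth muscle arrays spanned at least 2 log2 units in 1442 genes.

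Of the probe sets without a gene symbol, 4492 passed the filter, and in a fit of 29565 probe sets 80 were higher and 47 lower in collecting duct, 2.83% against 5.05% of those with 1 symbol. Of 528 called genes with several probe sets that passed the filter, 475 had all of them on the same side of 0. In 126 of the 528 all of these probe sets were called in the same direction. None of the called genes had a probe set called in the opposite direction.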
